A study of Arabidopsis thaliana with 4 samples.

Results

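The genes described here had a mean normalized value above a set level in wild-type (WT) *Arabidopsis* seedlings and still higher values in the *aln-1* mutant. *ALN* encodes allantoinase, which opens the ring of allantoin in the breakdown of purines. Plants that lack this enzyme cannot pass on the nitrogen held in allantoin, and the metabolite builds up. *aln-1* is a T-DNA insertion line of this gene in the Col-0 background, and the WT was Col-0. The aerial parts of seedlings were harvested 2 weeks after germination from medium with 1% sucrose at 22 °C, with 16 h light and 8 h dark. No treatment was applied to either genotype, and the complemented line of the mutant was not on these arrays. RNA was hybridised to Affymetrix ATH1 arrays, 2 for *aln-1* and 2 for WT, and nothing in the sources says that replicates came from separate cultures, so each p-value covers only the spread among arrays of a genotype, and that spread may be technical. All values are the deposited normalized values, which come from a lognormal model with a log base not given in the sources used here. Differences are therefore given in these units, as the *aln-1* mean minus the WT mean, and no fold changes are stated. In RNA of whole aerial parts, more cells of a type and more RNA per cell cannot be told apart.

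Members were chosen by the same *aln-1* and WT values that are described below. A gene entered when its difference was at least 0.6, when both *aln-1* arrays lay above both WT arrays, and when its WT mean was at least 0.17. This level is no detection call, and single WT arrays of some members lay below the WT replicate 1 median over all genes of 0.0870, such as AT5G19110 at -0.106 and AT5G23830 at 0.0701. Of 12719 genes with a probe set of their own, 110 met these conditions, or 0.865% of all. The rule then left out 11 of them, which belong to named enzyme and cell wall families or to cold-regulated genes, and 99 members remained. No test of the members between genotypes is given, since the choice fixed the direction and the least size of every difference. The requirement that the arrays not overlap removed no gene that met the other conditions. Among 9035 probe sets with several genes or none listed, 121 met the same conditions, and these are not members.

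The targeted transcript was lower in the arrays labelled *aln-1*. *ALN* had values of -0.0466 and 0.00508 in *aln-1*, against 0.367 and 0.442 in WT, a difference of -0.425 (standard error 0.0505, adjusted p = 0.0116 from limma). With WT replicate 1 left out the adjusted p from limma became 0.0845, and with WT replicate 2 left out 0.0726. The position of the *ALN* probes relative to the insertion was not analysed here, so this fall is a limited check of the labels. A gene is called measured here where the annotation used gave it a probe set of its own, and other genes may be on the array under probe sets not named here. Of the markers of green leaf and shoot, 2 of 12 were measured in this sense. *RCA*, which encodes Rubisco activase, had means of 2.45 in *aln-1* and 2.75 in WT (adjusted p = 0.0390 from limma), and *FAMA*, a regulator of guard cell formation, had means of -0.0700 in *aln-1* and 0.103 in WT (adjusted p = 0.0548). Of 10 root markers 2 were measured. *EXPA7*, an expansin of root hairs, had -0.104 and 0.00141 in *aln-1*, against -0.277 and -0.324 in WT (adjusted p = 0.0430 from limma). *EXPA18*, another root hair expansin, differed by 0.236 and was not called (adjusted p = 0.0918), and the part of other tissue in the members' values was not tested. The markers of seed and flower had no probe set named in the annotation used and were not analysed here.

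**Figure D1:**
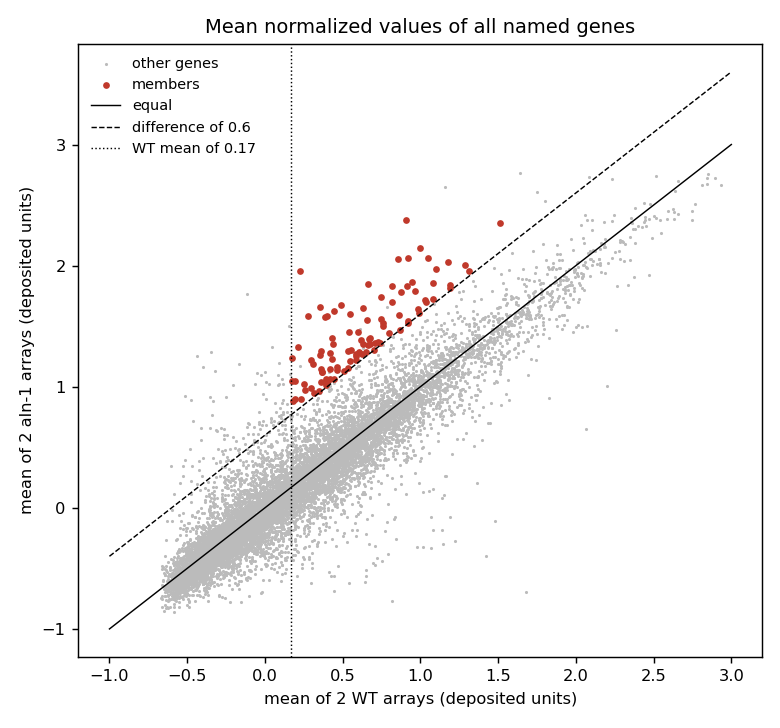
Mean of the 2 *aln-1* arrays (vertical axis) against the mean of the 2 WT arrays (horizontal axis) for 12719 genes, in deposited units, with the 99 members in red. The members lie above the dashed line of a difference of 0.6 and right of the dotted line of a WT mean of 0.17, and grey points in that corner are the 11 genes that the rule left out.

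The members covered a wide range of WT levels. Member means lay between 0.880 and 2.38 in *aln-1*, with a median of 1.39, and between 0.172 and 1.51 in WT, with a median of 0.601. Differences ran from 0.60 to 1.73, with a median of 0.745, beside a median of -0.0332 over all genes. They crowded toward the threshold, as 39 members differed by less than 0.7, 20 by 0.7 to under 0.8, 12 by 0.8 to under 0.9, 10 by 0.9 to under 1, and 18 by at least 1. Across the 99 genes the difference and the WT mean had r = -0.142, across genes that share the same 4 arrays and are not independent replicates. The rule set a floor on both measures, and the difference contains the WT mean. This value therefore cannot show whether the 2 are related. The distance from the lower *aln-1* array to the higher WT array had a median of 0.556, and in 87 members it exceeded the gap between replicates in both genotypes. The narrowest such distance, 0.127, belonged to AT4G22212. The rule asked for separated arrays and a least difference, so these distances and the count of 87 follow in part from the choice.

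The strongest differences were found mostly at loci that the gene table used here lists without a gene name or function. AT5G23830 led with 1.76 and 2.15 in *aln-1*, against 0.0701 and 0.382 in WT, a difference of 1.73. Its lower *aln-1* array lay 1.38 above its higher WT array, the widest separation among the members. *ECS1*, a pathogen-inducible gene named for expression that varies with the ecotype, followed with 2.49 and 2.27 in *aln-1*, against 1.08 and 0.742 in WT. This difference was 1.47, and *ECS1* had the highest *aln-1* mean of all members.

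AT5G37990 had 1.56 and 1.61 in *aln-1*, against 0.157 and 0.393 in WT. AT4G36010 had 1.51 and 1.81 in *aln-1*, against 0.235 and 0.468 in WT. Both differed by 1.31, although the *aln-1* arrays were 0.0527 apart for the first and 0.299 apart for the second. AT2G25450 was among the steadiest members, at 2.06 and 2.04 in *aln-1*, against 0.904 and 0.803 in WT, a difference of 1.2. AT5G26260 had 1.74 and 1.96 in *aln-1*, against 0.557 and 0.771 in WT, a difference of 1.19. The other unnamed loci with a difference of at least 1 were AT2G43535, AT2G03980, AT5G05600, AT5G16010, AT1G51090, AT5G19110, AT1G66760, AT4G08170 and AT1G67865, between 1.01 and 1.18. AT4G22610, AT5G56980, AT5G19875, AT5G53050, AT4G19160 and AT1G06640 came next, between 0.911 and 0.997.

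**Figure D2:**
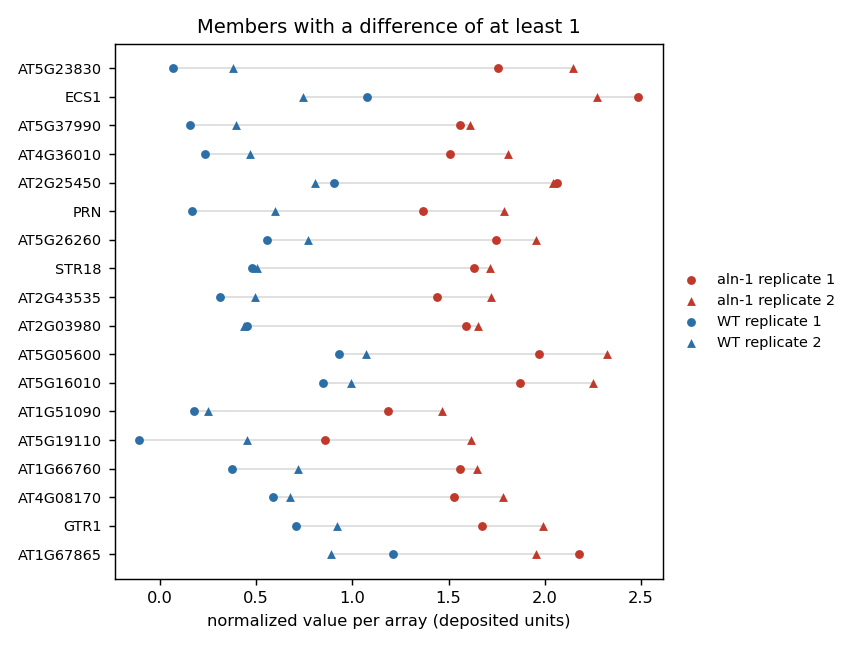
Normalized value on each array (horizontal axis, deposited units) of the 18 members with a difference of at least 1, sorted by that difference, with circles for replicate 1 and triangles for replicate 2. Every red *aln-1* symbol lies right of every blue WT symbol of the same gene, and AT5G19110 has the widest gap between its *aln-1* arrays, 0.762.

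The gene table used here gave a gene name for 22 members, 20 as the symbol and 2 as synonyms. Proteins of the NRT1/PTR family (NPF) move nitrate, peptides, hormones or specialised metabolites across membranes, and 4 members belonged to it. *GTR1* and *GTR2* encode NPF2.10 and NPF2.11, the importers that load glucosinolates into the phloem for transport to seeds. *GTR1* had 1.67 and 1.99 in *aln-1*, against 0.709 and 0.921 in WT, a difference of 1.02. *GTR2* had 1.46 and 1.75 in *aln-1*, against 0.938 and 1.05 in WT, a difference of 0.613 that placed it close to the threshold. Both glucosinolate importers were thus members, at different distances from the limit.

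AT3G21670, which encodes NPF6.4, had 1.81 and 1.92 in *aln-1*, against 0.816 and 1.08 in WT, a difference of 0.918. AT1G59740, which encodes NPF4.3, had 0.976 and 1.31 in *aln-1*, against 0.293 and 0.432 in WT, a difference of 0.782. Of 11 NPF genes measured, 7 were not members, and 1 of these was higher in *aln-1* by limma while none was lower. That gene was AT2G26690, NPF6.2, with a difference of 0.375 (adjusted p = 0.0227 from limma). The median difference of the 7 was -0.0452, and their values ran from -0.310 to 0.375. Over all 21754 genes and probe sets tested, 7.42% were higher and 8.17% lower in *aln-1* at an adjusted p under 0.05, which is the background for every such count here. The families compared were chosen after the members' values had been seen, so these counts describe the relatives of the members and are no evidence about a family.

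**Figure D3:**
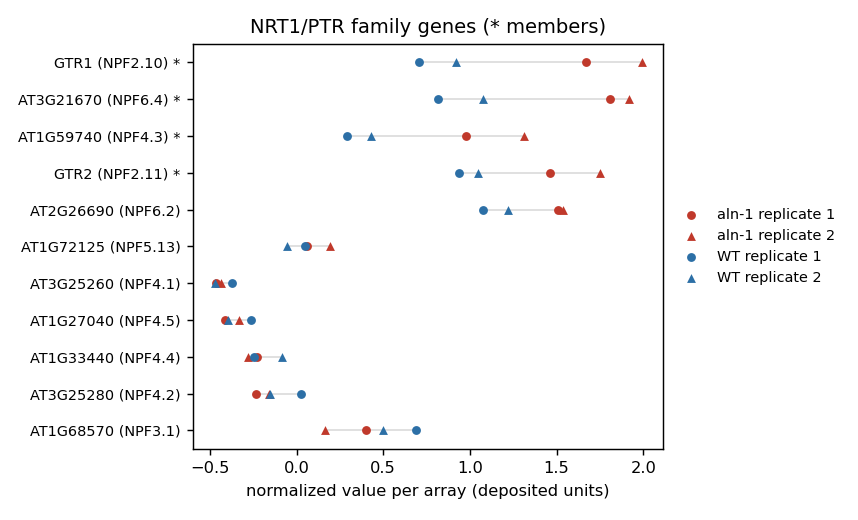
Normalized value on each array (horizontal axis, deposited units) of the 11 measured NRT1/PTR family genes, with circles for replicate 1, triangles for replicate 2 and an asterisk at the 4 members. The *aln-1* symbols lie right of the WT symbols with a clear margin in the 4 members and in AT2G26690, while limma called none of the other 6 genes, of which AT1G68570 had the lowest difference, -0.310.

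*SWEET16*, which encodes a sugar transporter of the vacuolar membrane, had 1.03 and 1.5 in *aln-1*, against 0.163 and 0.547 in WT. Its difference was 0.909, and the replicates were far apart in both genotypes. Of the 12 other *SWEET* genes measured, 3 were higher in *aln-1* and 1 was lower by limma. The higher ones were *SWEET4*, *SWEET17* and *SWEET13*, with differences of 0.657, 0.459 and 0.429 (adjusted p = 0.00698, 0.0314 and 0.0105 from limma). Their WT means were 0.117, 0.886 and -0.347, so of these only *SWEET17* reached the WT limit of the members. *SWEET17*, like *SWEET16*, encodes a vacuolar sugar transporter. *SWEET1* was lower by -0.346 (adjusted p = 0.0456 from limma).

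Several named members have roles in sulfur and redox metabolism. *STR18*, a sulfurtransferase of the rhodanese type, had 1.63 and 1.71 in *aln-1*, against 0.478 and 0.504 in WT. The difference was 1.18, and neither genotype's replicates were more than 0.0821 apart. *MGL*, methionine gamma-lyase, cleaves methionine to methanethiol, ammonia and a keto acid. It had 1.36 and 1.34 in *aln-1*, against 0.745 and 0.514 in WT, a difference of 0.720. *MSRB9*, a methionine sulfoxide reductase that repairs oxidised methionine in proteins, had 1.41 and 2.04 in *aln-1*, against 0.987 and 1.17 in WT. Its difference was 0.648, and its *aln-1* arrays were 0.628 apart, nearly as far as the genotypes. None of the other 4 methionine sulfoxide reductase genes measured was called by limma, at differences of 0.0379 to 0.281.

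*NDB2* encodes a dehydrogenase on the outer face of the inner mitochondrial membrane that feeds electrons from cytosolic NADH into the respiratory chain without pumping protons. It had 1.09 and 1.45 in *aln-1*, against 0.584 and 0.590 in WT, a difference of 0.683. None of its relatives was called higher. *NDB1* was lower in *aln-1* by -0.394 and *NDC1* by -0.261 (adjusted p = 0.0143 and 0.0474 from limma), while *NDB3* and *NDB4* were not called, at 0.114 and -0.0711. *CcdA*, a thylakoid membrane protein that passes reducing power to the lumen for cytochrome assembly, had 0.985 and 0.913 in *aln-1*, against 0.341 and 0.296 in WT, a difference of 0.631.

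Regulators of stress, hormone and G protein signaling were found among the named members. *STZ*, also called *ZAT10*, encodes a zinc finger repressor induced by salt, cold and other stresses, and had 1.24 and 1.49 in *aln-1*, against 0.763 and 0.656 in WT. Its difference was 0.656. *IAA18*, an Aux/IAA repressor of auxin responses, had 1.23 and 1.37 in *aln-1*, against 0.542 and 0.569 in WT, a difference of 0.745. Of 6 other *Aux/IAA* genes measured none was called by limma, and the nearest to a call was *IAA29*, lower by -0.492 (adjusted p = 0.0547 from limma). *PRN*, which encodes a pirin that binds the G protein alpha subunit, had 1.37 and 1.79 in *aln-1*, against 0.169 and 0.598 in WT, a difference of 1.19. *PRN* thus had the largest difference of these 3 and also the widest spread in both genotypes.

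The ER body is a compartment of the endoplasmic reticulum in Brassicaceae that stores beta-glucosidases and is tied to defence. Its regulator and one of its components were both members. *NAI1*, a transcription factor needed for ER bodies to form, had 0.965 and 1.16 in *aln-1*, against 0.370 and 0.512 in WT, a difference of 0.623. *NAI2*, the component that sets up the bodies, had 1.84 and 2.07 in *aln-1*, against 1.18 and 1.44 in WT, a difference of 0.642. *PYK10*, the main beta-glucosidase of ER bodies and not a member, had means of 2.70 in *aln-1* and 2.66 in WT (difference 0.0425, adjusted p = 0.555 from limma).

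Cell wall and lipid genes were represented by 3 named members. *EXLA1*, an expansin-like protein, had 0.943 and 1.16 in *aln-1*, against 0.0860 and 0.303 in WT, a difference of 0.855. Among 18 other expansin genes, *EXLA2*, *EXPA9* and *EXPA7* were higher in *aln-1* by limma and none was lower. Their WT means were -0.150, -0.129 and -0.301, under the WT limit of the members. *EXLA2* differed by 0.383 (adjusted p = 0.020 from limma), while *EXLA3* differed by 0.557 and was not called (adjusted p = 0.0820), with 0.290 and 0.776 on its *aln-1* arrays. *GH9B8*, a glycosyl hydrolase of the family that holds plant endoglucanases, had 0.924 and 1.21 in *aln-1*, against 0.326 and 0.509 in WT. Its difference was 0.648, and none of its 14 measured relatives was called. *ATCES1*, an alkaline ceramidase that releases sphingoid bases from ceramide, had 1.14 and 1.42 in *aln-1*, against 0.428 and 0.406 in WT, a difference of 0.862.

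A last group took their names from responses to salt or water loss. *SAT32*, a salt tolerance gene, had 1.26 and 1.54 in *aln-1*, against 0.560 and 0.787 in WT, a difference of 0.726. *DI21*, first described as drought-induced, had 1.42 and 1.46 in *aln-1*, against 0.894 and 0.706 in WT, a difference of 0.645. *RD2*, responsive to desiccation, had 1.73 and 1.89 in *aln-1*, against 1.19 and 1.19 in WT, a difference of 0.621. In all 3 genes the genotypes stood further apart than the replicates of either. This held for 87 of the 99 members and follows in part from the rule.

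**Figure D4:**
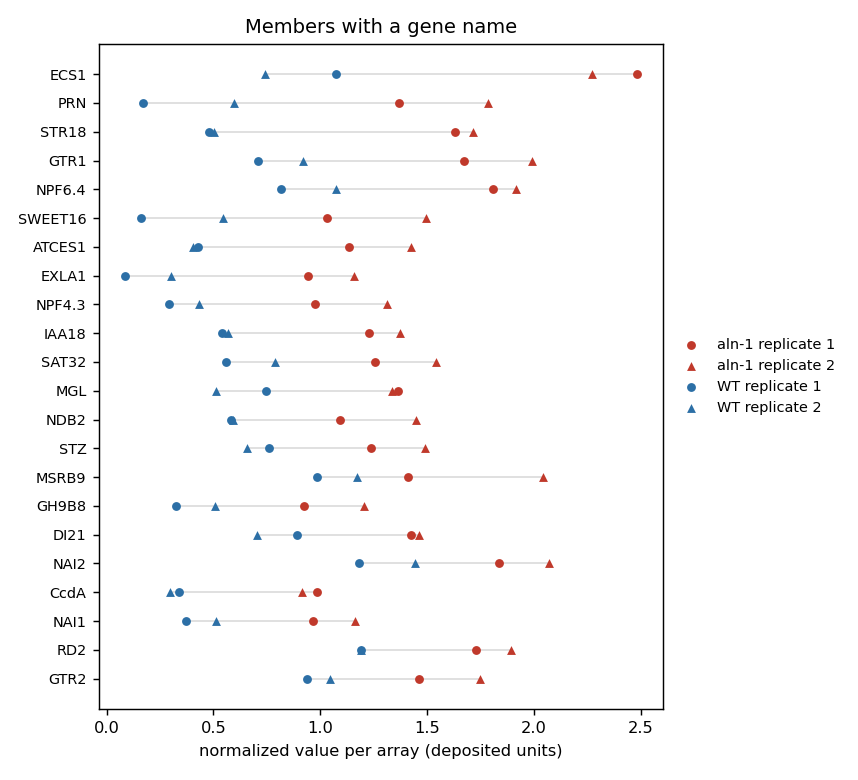
Normalized value on each array (horizontal axis, deposited units) of the 22 members with a gene name, sorted by the difference between genotypes, with circles for replicate 1 and triangles for replicate 2. The *aln-1* arrays (red) lie right of the WT arrays (blue) in every row, and replicate 2 lies right of replicate 1 in 19 of 22 genes in *aln-1* and in 16 of 22 in WT.

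The order of the replicates within a genotype was no condition of the rule, but many members shared it. This order comes from the same 4 arrays that the rule used and is not independent of the choice of members. The shares below are therefore a description only. Replicate 2 lay above replicate 1 in 86 of 99 members (86.9%) in *aln-1* and in 79 (79.8%) in WT, and in both genotypes together in 74 (74.7%). Over the 5690 genes with a WT mean of at least 0.17, these shares were 41.6% in *aln-1*, 54.2% in WT and 23.0% in both. The order was also frequent in 118 genes with a WT mean under 0.17 that met the same limits on difference and overlap. Replicate 2 lay above replicate 1 in 75.4% of them in *aln-1* and in 60.2% in WT. The median gap, replicate 2 minus replicate 1, was 0.207 in *aln-1* and 0.129 in WT for the members, against -0.0166 and 0.00591 for the 5690 genes. The array medians over the members were 1.33 and 1.53 in *aln-1*, against 0.544 and 0.650 in WT, while over all genes they were 0.0613 and 0.0550 in *aln-1*, against 0.0870 and 0.0767 in WT. The second array of each genotype thus had the higher median over the members and the slightly lower median over all genes. Gene by gene over all 12719 genes, replicate 2 lay above replicate 1 in 51.5% in *aln-1* and in 39.6% in WT, with median gaps of 0.00297 and -0.0188. The sources used here do not say how the second arrays differed from the first, and the part of this order in the difference between genotypes was not tested.

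The share of genes with this order changed with the difference between genotypes. In *aln-1* it was 33.3% of the 105 genes that were lower by more than 0.6, 16.2% at -0.6 to -0.3, 19.6% at -0.3 to -0.1 and 46.3% at -0.1 to 0.1. It was then 62.5% at 0.1 to 0.3, 79.1% at 0.3 to 0.6 and 87.3% at 0.6 and above. In WT the shares over the same steps were 31.4%, 49.6%, 47.6%, 53.6%, 63.0%, 77.2% and 80.9%. The 11 genes left out by the rule are included in the last step. Across the 5690 genes the difference between genotypes correlated with the gap between *aln-1* replicates (r = 0.477) and with the gap between WT replicates (r = 0.332). Without the members, over 5591 genes, the values were 0.440 and 0.293. Each of these correlations shares arrays between its 2 measures and is a description only.

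**Figure D5:**
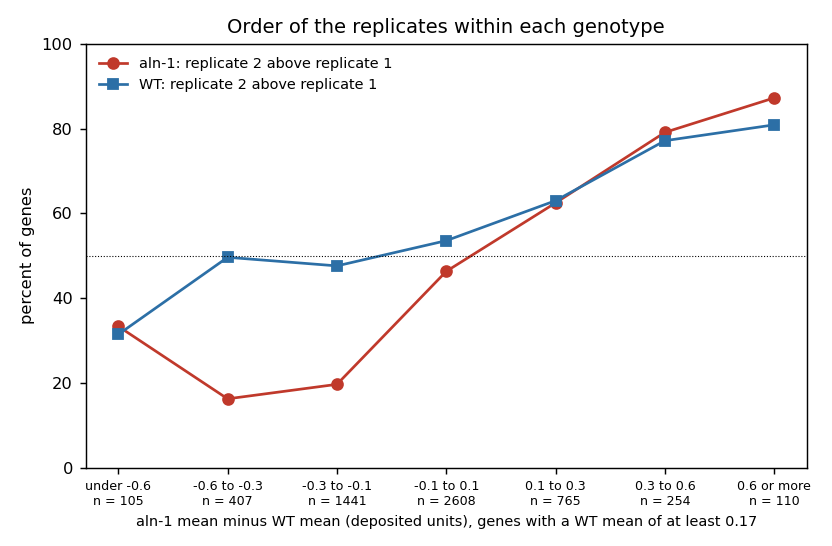
Percent of genes whose replicate 2 lay above replicate 1 (vertical axis), in *aln-1* (red circles) and in WT (blue squares), by the difference between genotypes in deposited units (horizontal axis), over 5690 genes with a WT mean of at least 0.17. The share reaches 87.3% in *aln-1* and 80.9% in WT among genes higher by 0.6 or more, and the dotted line marks 50%.

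A minority of the members ran the other way. In 13 members replicate 2 was the lower array in *aln-1*, in 20 it was the lower array in WT, and in 8 it was lower in both. These 8 were *ECS1*, *MGL*, *CcdA*, AT2G25450, AT1G67865, AT1G31910, AT5G44580 and AT2G33220. The gap between replicates was wider in *aln-1* than in WT for 63 of 99 members. The same held for 3560 of the 5690 genes at or above the WT limit and for 6933 of all 12719 genes. The members' share was thus near that of the 5690 genes. Among the members the gap was widest in *aln-1* for AT5G19110 (0.762), AT4G28290 (0.634), *MSRB9* (0.628), AT2G16900 (0.626) and AT4G22212 (0.588). It was smallest for AT3G28220 (0.0171), AT1G76590 (0.0192), AT2G25450 (-0.0199), AT2G12400 (-0.0244) and AT1G31910 (-0.0266).

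The array that was left out decided how many genes met the rule. Without *aln-1* replicate 2, 66 genes met it, of which 63 were members, and without WT replicate 1, 80 genes met it, of which 75 were members. Without *aln-1* replicate 1, 131 genes met it, and without WT replicate 2, 105 did, with 96 and 88 members among them. Only 46 members met the rule with each array left out in turn, and 14 of these had a difference of at least 1 while 2 had one under 0.7. Of the 22 named members, 8 were among the 46, namely *ECS1*, *STR18*, *GTR1*, AT3G21670, *ATCES1*, AT1G59740, *IAA18* and *MGL*. AT5G23830, AT5G37990, *PRN* and AT5G19110 differed by at least 1 and were lost when WT replicate 2 was left out, as WT replicate 1 lay under 0.17.

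Members just inside and just outside the limits had nearly the same values. Just inside the limit on the difference were AT1G05340 (0.60), AT1G31710 (0.602), AT1G31550 (0.608), *GTR2* (0.613) and AT2G05540 (0.615). Just outside it were AT1G62660 (0.593), *AR781* (0.592), AT5G65470 (0.592), AT1G53560 (0.586) and AT4G01910 (0.583). On the WT limit, AT4G28290, AT5G19110, AT4G13860, AT4G30970 and *EXLA1* had WT means of 0.172, 0.173, 0.182, 0.191 and 0.195. AT2G47950, AT5G38710, AT4G36430, AT1G16850 and AT2G16990 fell just under it with 0.163, 0.162, 0.162, 0.152 and 0.145. Of these, AT1G16850 had 1.51 and 1.49 in *aln-1*, against 0.119 and 0.186 in WT, a difference of 1.35 that only 2 members exceeded.

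Some members lie close to each other in the genome. Counted in gene positions, AT1G76580 and AT1G76590 are adjacent, AT5G37970 and AT5G37990 are 2 apart, AT3G52470 and AT3G52500 are 3 apart, and *STZ* and *SAT32* are 4 apart. *ECS1* lies 3 positions from AT1G31550 and 9 from AT1G31710, and AT3G21670 lies 10 from AT3G21770. AT1G76580 had 0.904 and 1.04 in *aln-1*, against 0.271 and 0.245 in WT, and its neighbour AT1G76590 had 1.24 and 1.26 in *aln-1*, against 0.60 and 0.567 in WT. Whether near pairs are more frequent among members than among other genes was not tested. All members but AT1G67865, which was not in the gene table, were listed there, 97 as protein coding and AT3G17110 as a transcribed pseudogene.

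A second probe set was available for 2 members. AT1G31710 had 0.0450 and 0.0979 in *aln-1*, against -0.103 and -0.0886 in WT, on its other probe set, a difference of 0.167 beside 0.602 on the one used. AT4G24350 differed by 0.316 on a probe set shared with another gene and by 0.703 on its own. Both differences had the same direction and were smaller on the second probe set.

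Lists of stress, hormone and tissue genes were counted beside the members. Of 233 genes in 16 lists 35 had a named probe set of their own. Of these 35, 2 were members, beside 99 members among all 12719 genes. They were AT5G05600, listed as *JOX2* under jasmonic acid (JA) and wound outputs, and *STZ*, of the cold list and the touch list. The lists were chosen with earlier results of these data known, so this count is a description only. AT5G05600 had 1.97 and 2.32 in *aln-1*, against 0.929 and 1.07 in WT, a difference of 1.15. Of the other 5 JA and wound outputs measured, 3 were higher by limma and none lower. These were AT2G38240 (1.88), *BSMT1* (1.18), which makes methyl salicylate and methyl benzoate, and *THI2.1* (0.864), a thionin (adjusted p = 0.0185, 0.00416 and 0.00746 from limma). Their WT means were -0.114, -0.461 and -0.262, under the WT limit of the members.

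For JA synthesis and signaling, 4 of 29 genes had a named probe set and 2 of these were higher in *aln-1* by limma, while the others were not analysed here. *JMT*, which makes methyl jasmonate, differed by 0.750 and *OPCL1*, which activates JA precursors for beta-oxidation, by 0.330 (adjusted p = 0.00406 and 0.0234 from limma). *MYC3* and *MYC4*, transcription factors of the JA pathway, were not called, at 0.112 and -0.0537. The other 4 cold genes measured, *LTI30*, *COR15A*, *COR15B* and *COR47*, were higher, and all are among the 11 genes that met the limits and were left out, so the rule's values had already fixed this count. The genes of the abscisic acid list had no probe set named in the annotation used and were not analysed here.

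In the other lists, 4 genes that were not members were called lower, *RCA* among them, and 1, *EXPA7*, was called higher. *BCAT4*, which starts the synthesis of methionine-derived glucosinolates, was lower by -0.467 (adjusted p = 0.0267 from limma). It was the only gene measured of 14 for glucosinolate synthesis, so this value describes *BCAT4* alone. *WRKY53*, a regulator of leaf senescence, was lower by -0.771 and *SAG101*, a partner in defence signaling, by -0.399 (adjusted p = 0.0174 and 0.0255 from limma). Each comes from a list with 2 measured genes, of 15 for senescence and sugar starvation and of 12 for salicylic acid. The other measured genes, *ATG8A* and *GRX480*, were not called, at 0.0796 and -0.153. *CML38*, a touch-induced calmodulin-like gene, differed by 0.726 and was not called (adjusted p = 0.0585). The 2 measured genes of purine catabolism beyond *ALN*, *AAH* and *UGLYAH*, differed by 0.162 and -0.0816 and were not called (adjusted p = 0.160 and 0.347). The 4 reference genes measured lay between -0.166 and 0.0863 and were not called either. Over all lists 10 genes that were not members were higher and 4 lower. The 10 include *LTI30*, *COR15A*, *COR15B* and *COR47*, whose direction the rule's values had already fixed. Both counts were smaller when either WT array was left out.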

How the data were processed

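The authors used the SuperNORM service, which fits a lognormal model, to renormalize earlier ATH1 data and deposited a normalized score for each probe set and array. The sources used here name neither its version nor its background and probe summary steps. The deposited table also holds group and interaction p-values from the authors' ANOVA, which were not used. The series' value table held the same scores, with a largest difference of 4.59e-08. Of 22810 probe sets, 64 controls and 842 without values were left out. Probe sets were named through the platform annotation and the RefSeq gene table of TAIR10.1, which matched 12657 of 12719 genes, and a gene was represented by its probe set with the highest mean. Precision is limited by having 2 arrays per genotype.

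The members, lists, families and tests were chosen with earlier results of these data known. Named genes were *ALN*, the 25 largest differences, members with a known role or in a list, the 5 genes nearest each side of each limit, the widest and narrowest gaps between *aln-1* arrays, members within 10 gene positions, and up to 4 other genes per list by smallest p. Positions counted protein-coding genes and pseudogenes. Protein identity between members was not computed. limma 3.58.1 in R 4.3.3 (lmFit and eBayes, genotype only, two-sided) was fitted to 21754 genes and probe sets with Benjamini-Hochberg adjustment, and served genes that were not members. The fit was run on simulated data with known changes and with noise drawn independently for each gene and array. That check does not cover gaps between replicates that genes share. The methods' ANOVA on probe data was not run, since the summarised scores were used. Alternatives were other scalings, thresholds, probe set choices, moderation, a filter on low values, a replicate block and leaving out each array.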

Additional observations from a re-analysis of the deposited data

How the results depend on the processing

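Under a limit of 0.7 in place of 0.6 the rule gave 60 members, and with each array left out in turn 66 to 131. Other settings gave 86 to 145, including 2 added after seeing the data, with overlap of genotypes allowed (99) and with no gene left out (110). The median difference of the members was 0.673 to 0.855 with an array left out, and 0.730 and 0.763 after quantile normalization and centring. Over all genes and probe sets 71 to 2114 were called higher and 61 to 2372 lower with an array left out, the lowest without WT replicate 1. Centring on array medians gave 1843 higher and 1511 lower, and quantile normalization 1866 and 1802, beside 1615 and 1778 without them, so the direction with more calls changed. Among list genes 2 to 12 were called higher and 0 to 4 lower with an array left out. The difference of *ALN* was -0.463 to -0.388, and it was no longer called without either WT array. Shared replicate numbers are not stated to pair arrays, and the gaps between replicates of the genotypes correlated with r = 0.0413 over all genes and probe sets, 0.134 over the 5690 genes at or above the WT limit and 0.468 over the 99 members, as a description across genes. With the replicate block, 1918 were called higher and 1854 lower, 11 and 4 list genes were called, and *ALN* stayed at -0.425 (adjusted p = 0.00827 from limma).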
